A study of Mus musculus with 374 samples.

Results

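Granulocytes and erythroblasts, the main myeloid and erythroid cells of the bone marrow, were compared gene by gene in single cells sorted from 1 mouse. The comparison used every well labelled Grans (96 wells, plate rows G to J) and every well labelled EryB (96 wells, plate rows C to F), which together made 192 of the 374 wells analysed on the 384-well plate. The animal was a C57BL/6 female aged between 10 and 13 weeks, and it had received no treatment that the labels name. Granulocytes were gated as Mac1+ Gr1+ and erythroblasts as Ter119+ CD44+ cells of middle to high forward scatter, both from bone marrow. The other wells held progenitor/stem cells (LSK), marrow B lymphocytes and thymic T lymphocytes, which served here as reference profiles and for levels set beside those of the compared populations. Because all cells came from 1 mouse and 1 plate, each population was 1 sample. Differences between the populations are therefore given as sizes with no test, and intervals are 95% intervals that cover counting error only. Plate row and cell type cannot be told apart, since no plate row held cells of both populations.

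Granulocytes of the marrow are mostly neutrophils, phagocytes that build their granules in waves during maturation in the marrow: primary granules with myeloperoxidase and serine proteases first, specific granules with lactoferrin and antimicrobial peptides next, and gelatinase granules last. Erythroblasts are the nucleated precursors of red cells, which divide a few more times while they fill with haemoglobin, rebuild their membrane skeleton and finally lose their nucleus and organelles. Each cell thus devotes much of its messenger RNA to a few products that the other does not need.

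Transcripts were counted as unique molecular identifiers (UMIs) with CEL-seq2, which reads the 3' end of each messenger RNA, so values were not divided by transcript length. Granulocyte wells held 403506 mouse UMIs in all, with a lowest, median and highest well of 8, 3880 and 22425. Erythroblast wells held 666728, with a lowest, median and highest well of 466, 6113.5 and 20457. Without the 4 adult haemoglobin genes (the alpha pair Hba-a1 and Hba-a2 with the beta pair Hbb-bs and Hbb-bt) the medians were 3813 and 4423 UMIs per well. A granulocyte well had a median of 1280.5 genes with a UMI and an erythroblast well 1868, but after thinning to 1500 UMIs per well the medians were 670 (93 wells, 3 shallower wells left out) and 656 (95 wells, 1 left out). No cell barcode was shared by any 2 wells of these populations.

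The labels were checked against the defining genes before any other comparison. S100a8 and S100a9, which encode the calcium-binding alarmins that fill neutrophil cytoplasm, together took 9.73% of granulocyte UMIs (exact binomial interval 9.64 to 9.82) and 0.0879% of erythroblast UMIs. The same share was 0.108% in LSK wells, 0.368% in B lymphocyte wells and 0.182% in T lymphocyte wells, so the erythroblast value was the lowest of these. In the B lymphocyte wells 305 of the 500 UMIs of this pair lay in 1 well, without which the share was 0.149%. The 4 haemoglobin genes took 23.5% of erythroblast UMIs (23.4 to 23.6) and 1.54% of granulocyte UMIs, beside 1.21% in LSK, 2.83% in B lymphocyte and 1.77% in T lymphocyte wells. When each well was matched to the summed profile of the 5 populations over 3906 genes, 94 of 96 granulocyte wells and 95 of 96 erythroblast wells were nearest their own population. The exceptions were an erythroblast well of 466 UMIs (row C, column 5) and granulocyte wells in row I, column 17 and row J, column 12, both nearest LSK. A monocyte profile was not among the 5, so the match could not tell such cells apart from granulocytes. Surface fluorescence recorded at the sort also separated the populations, which is no finding because it set the gates: all 96 erythroblasts exceeded the highest granulocyte for Ter119, and all 96 granulocytes exceeded the highest erythroblast for Gr1 and for Mac-1.

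A set of granulocyte wells stood apart from the rest. After the values were seen, 13 wells were found with S100a8 and S100a9 below 1% of their mouse UMIs, 12 of them with at least 500 UMIs. In these 12 the share lay between 0 and 0.128%, whereas the next well above had 1.89%. They were not shallow, with a median of 5614 UMIs and 69435 in total, and lay in all 4 plate rows (2 each in rows G, H and I and 6 in row J). Both granulocyte wells nearest LSK (row I, column 17 and row J, column 12) were among them. Lyz2, a lysozyme gene, had a UMI in 11 of the 12 wells and none in the well of row I, column 17. Ccr2, the chemokine receptor by which classical monocytes leave the marrow, had 231 of its 276 granulocyte UMIs in these 12 wells, and every one of the 12 had at least 1. Irf8, a transcription factor of the monocyte lineage, had 54 of 63 UMIs there, and Csf1r, the receptor for macrophage colony-stimulating factor, had 49 of 80. In contrast they held 11 of 6325 UMIs of Ngp, 9 of 3691 of Camp, 14 of 336 of Csf3r and none of the 288 of Cxcr2. The tissue macrophage genes C1qa and C1qc had no UMI in any granulocyte well and C1qb had 1. The Gr1 antibody is known to bind both Ly6G and Ly6C, and Ly6c2 had 166 of its 583 granulocyte UMIs in the 12 wells against none of the 10 of Ly6g. Ly6c2 also had a UMI in 62 of 83 other granulocyte wells, and the Ly6g count is small. How the 12 wells came to be in the gate was not tested. The wells were kept under their label, and some of the results that moved without them are given below with both values.

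A promoter window is shown for 1 gene of each side. S100a9, which encodes 1 partner of the calprotectin complex, was the most abundant protein-coding gene of granulocytes and was among the 12 genes with the highest ratios. Blvrb, which encodes a biliverdin reductase of red cells, was among the 12 genes with the lowest ratios and had the most erythroblast UMIs of those reported here whose window lay wholly outside the annotated gene. For both the 250 bases before the RefSeq start are given, to show where these transcripts begin. The S100a9 window is chr3:90695722-90695971 on the minus strand and the Blvrb window chr7:27447728-27447977 on the plus strand (RefSeq, GRCm38.p6), and matches to the motifs described next are in capitals.
S100a9: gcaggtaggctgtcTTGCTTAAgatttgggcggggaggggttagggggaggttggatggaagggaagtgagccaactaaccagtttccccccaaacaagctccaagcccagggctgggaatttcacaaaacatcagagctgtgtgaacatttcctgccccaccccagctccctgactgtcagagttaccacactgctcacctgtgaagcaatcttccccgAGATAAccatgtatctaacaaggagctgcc
Blvrb: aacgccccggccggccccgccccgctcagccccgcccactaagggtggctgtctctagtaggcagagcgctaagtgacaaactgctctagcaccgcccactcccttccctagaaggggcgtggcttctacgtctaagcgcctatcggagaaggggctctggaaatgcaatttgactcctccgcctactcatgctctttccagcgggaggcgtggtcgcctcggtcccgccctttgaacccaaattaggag
The windows were searched on both strands for AGATAA (bound by GATA factors), CCACACCC (KLF factors), TTGCNNAA (C/EBP factors) and GAGGAAGT (PU.1). S100a9 had 1 match to TTGCNNAA and 1 to AGATAA, which did not overlap, and Blvrb had no match to any of them. Of all 32851 promoter windows of this length in the table, 9.99% held AGATAA, 3.20% CCACACCC, 9.56% TTGCNNAA and 2.44% GAGGAAGT. A match is only a match of letters, and the S100a9 window held letters named for a factor of each lineage.

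Counts were summed over the wells of each population and scaled to counts per 1000000 mouse UMIs (CPM), and 3057 genes with at least 50 UMIs in both populations together were compared. A gene could reach 50 UMIs through the population where it was high alone. Of these genes 802 (26.2%) were at least 2-fold higher in granulocytes, 1229 (40.2%) were at least 2-fold higher in erythroblasts and 1026 lay within 2-fold. The granulocyte side was the shorter list but had more large ratios, with 343 genes at least 16-fold higher against 91 in erythroblasts (301 against 159 with the haemoglobin genes left out of the totals). Sums under 3 UMIs were set to 3, and granulocytes had the smaller total. A gene near 0 in the other population therefore needed fewer UMIs to reach 16-fold in granulocytes than in erythroblasts. The part of this in the 2 counts was not tested. The median log2 ratio of granulocytes over erythroblasts was -0.55, and the 5th and 95th percentiles were -3.65 and 5.25. Leaving the 4 haemoglobin genes out of both totals shifted every other log2 ratio by -0.36, giving a median of -0.91, with 692 genes (22.6%) at least 2-fold higher in granulocytes and 1476 (48.3%) in erythroblasts. All ratios below use the full total, and a difference should be read against the median of -0.55. The 4 plate rows of a population, each a sum over 24 wells, are parts of 1 sample and not replicates. For 2054 genes (67.2%) all 4 rows of one population exceeded all 4 rows of the other. This held for 1869 of the genes past 2-fold in either direction, which were counted from the same sums.

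**Figure D1:**
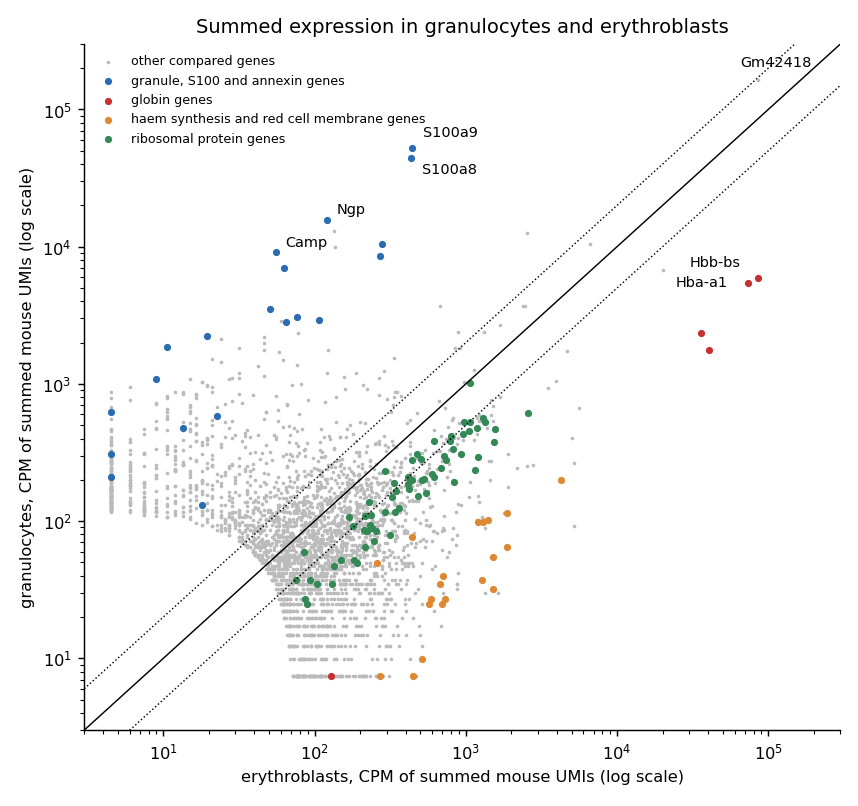
CPM of each compared gene in granulocytes (vertical, log scale) against erythroblasts (horizontal, log scale), 1 point per gene, with dotted lines at a 2-fold ratio and selected gene lists in colour (sums under 3 UMIs drawn at 3). Granulocyte granule and S100 genes lie far above the upper line and haemoglobin, haem and red cell membrane genes far below the lower one, with 1026 of 3057 genes between the lines.

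S100a9 (ENSMUSG00000056071, chromosome 3, 90692632 to 90695721, minus strand, GRCm38) was the most abundant protein-coding gene of granulocytes. Its UMIs per well had a lowest, median and highest value of 0, 221 and 639 in granulocytes and 0, 2.5 and 13 in erythroblasts. In 82 granulocyte wells it exceeded the highest erythroblast well. The summed level was 52733 CPM against 444 CPM, a 119-fold difference (105.9 to 134), and the plate rows ran from 45378 to 57743 CPM in granulocytes and from 373 to 539 CPM in erythroblasts. S100a8, its partner in the calprotectin complex, gave 44584 against 435 CPM, a 102.5-fold difference (91.3 to 116). All 6 compared S100 and annexin genes (of 9 listed) were at least 2-fold higher in granulocytes, with a median log2 ratio of 6.07. S100a10 had the smallest ratio, 2.87 on the log2 scale, and Anxa1, which encodes an annexin that restrains neutrophil recruitment, one of the largest at 6.84.

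Specific granule genes had the highest median of the lists. All 8 of 8 were at least 2-fold higher in granulocytes, with a median log2 ratio of 6.87. Ngp, which encodes neutrophilic granule protein, had 0, 12 and 347 UMIs in the lowest, median and highest granulocyte well and 0, 1 and 4 in erythroblasts. Its levels were 15675 and 121 CPM, a 129-fold difference (104 to 163). Camp, the precursor of the cathelicidin antimicrobial peptide, was at 9147 against 55.5 CPM, a 165-fold difference (119 to 234). Although its sum was high, its median granulocyte well held only 3 UMIs and its highest 213, and 43 granulocyte wells exceeded the highest erythroblast well. Ltf, which encodes the iron-binding lactoferrin, had a similar spread, from 0 through a median of 2 to 149 UMIs per granulocyte well, while its sum stood at 7051 against 63.0 CPM. Lcn2, the siderophore-binding lipocalin, had the smallest ratio of the list (log2 4.98), and its erythroblast level of 270.0 CPM was below that of LSK (379 CPM), B lymphocyte (589 CPM) and T lymphocyte wells (574 CPM).

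Gelatinase granule and late neutrophil genes were all higher in granulocytes as well (6 of 6, median log2 ratio 5.38). Mmp9, the gelatinase that names these granules, had 0, 6.5 and 23 UMIs in the lowest, median and highest granulocyte well and at most 1 in any erythroblast well. It was at 1846 against 10.5 CPM, a 176-fold difference (84.9 to 439). Retnlg, a resistin-like secreted protein, reached 10416 against 280.5 CPM. Adam8, a membrane metalloprotease, had 85 UMIs in granulocytes and none in 96 erythroblast wells, which makes it 46.8-fold higher against a floor of 3 UMIs.

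The primary granule genes gave a different picture once wells were inspected. Only 3 of 6 listed genes had 50 UMIs, and all 3 were at least 2-fold higher in granulocytes: Mpo, the myeloperoxidase that makes hypochlorous acid, with 50 against 6 UMIs, and the serine proteases Elane with 142 against 10 and Prtn3 with 74 against 11. However, 251 of the 286 granulocyte UMIs of the list came from 1 well, in row I, column 13, chosen here after its values were seen. That well was the deepest of the granulocytes with 22425 UMIs and held 48 of the Mpo, 128 of the Elane and 63 of the Prtn3 UMIs. It also had S100a8 and S100a9 at 5.28% of its UMIs and was nearest the granulocyte profile. Yet it held 41 of the 276 granulocyte UMIs of Ccr2, beside 201 of the 6325 of Ngp and none of the 288 of Cxcr2. Without it Mpo had 2 against 6 UMIs, and the log2 ratios of Elane (1.29, 0.02 to 2.62) and Prtn3 (0.81, -0.54 to 2.15) rested on 14 and 11 granulocyte UMIs. The difference in primary granule genes thus rested on 1 well, while the specific granule genes kept a median log2 ratio of 6.92 without it.

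**Figure D2:**
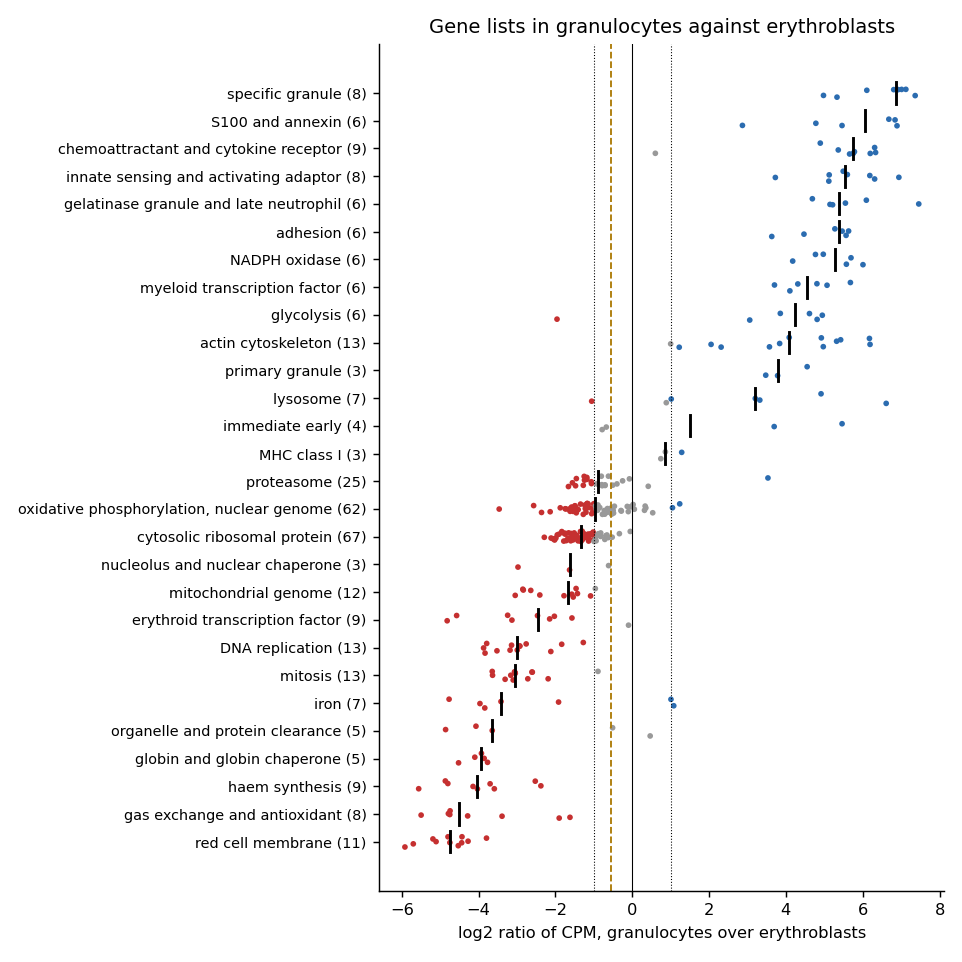
Log2 ratio of CPM, granulocytes over erythroblasts (horizontal), for the compared genes of 28 lists (vertical, number of genes in brackets), with a black bar at each list's median, a dashed line at the all-gene median of -0.55 and dotted lines at 2-fold. Neutrophil lists lie right of the dotted lines, red cell and cell cycle lists lie left, and ribosomal, oxidative phosphorylation and proteasome genes lie close to or just beyond the left line.

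Genes were also named by rank, 12 from each end of the ratios. On the granulocyte side, 8 of the 12 were members of a list, namely Camp, Ngp, Hp and Cd177 of the specific granules, Mmp9, S100a9, Anxa1 and, from the innate sensing list below, Pirb. Plbd1, a phospholipase B-like enzyme, had 320 UMIs in 80 granulocyte wells and 2 in erythroblasts, a ratio of 264 (72.6 to 2192). Hp, which encodes the haemoglobin-binding haptoglobin stored in specific granules, had 441 against 6 UMIs and exceeded the highest erythroblast well in 85 granulocyte wells. Cd177, a surface protein of neutrophils, had 253 against 3 UMIs, a ratio of 139 (47.1 to 680.2). Slfn4, a Schlafen family member, had 384 against 4 UMIs and Pirb, an inhibitory immunoglobulin-like receptor, 223 against 3, both with close relatives in the genome, so their counts are uncertain. Lyz1 had 265 against 3 UMIs and its near copy Lyz2, the lysozyme of myeloid cells, 5262 against 89, and reads could be split between them. The highest ratio after the floor belonged to I830127L07Rik, an annotated pseudogene, with 352 against 3 UMIs (ratio 194, 65.8 to 945).

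Receptors that guide and feed neutrophils were mostly on the granulocyte side as well. Of 12 listed, 9 were compared and 8 were at least 2-fold higher in granulocytes, with a median log2 ratio of 5.75. Cxcr2, the receptor for neutrophil-attracting chemokines, had 288 against 6 UMIs (log2 6.31), and the formyl peptide receptor Fpr2 293 against 6. Csf3r, the receptor for granulocyte colony-stimulating factor, had 0, 2 and 15 UMIs in the lowest, median and highest granulocyte well and at most 1 in an erythroblast well. At 1500 UMIs per well it was detected in 53.8% of granulocyte and 2.11% of erythroblast wells, against 79.2% and 11.5% before thinning. Cxcr4, which retains cells in the marrow, was the exception, with 111 against 121 UMIs and a log2 ratio of 0.60 (lower bound 0.22).

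The phagocyte oxidase, which makes superoxide, was represented by all 6 listed subunits and all 6 were at least 2-fold higher in granulocytes (median log2 5.27). Cybb, its catalytic membrane subunit, ran from 0 through 9 to 56 UMIs per granulocyte well and reached at most 3 in erythroblasts. It was at 2858 against 60.0 CPM, a 47.6-fold difference (34.8 to 67.0). Adhesion genes (6 of 8 compared, all 6 higher, median 5.37) included Itgam, the integrin chain detected by the Mac1 antibody, with 445 against 19 UMIs, a 38.7-fold difference (24.5 to 64.9). Of the innate sensing and activating adaptor genes, 8 of 12 were compared and all 8 were higher (median 5.54), among them Tyrobp, an adaptor of activating receptors, with 616 against 14 UMIs. The pattern recognition genes Tlr4 and Cd14 had 1 and 2 UMIs in granulocytes, too few to compare.

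Actin cytoskeleton genes were on the granulocyte side as well. Of 13 compared (14 listed) 12 were at least 2-fold higher in granulocytes, with a median log2 ratio of 4.09. Tmsb4x, which sequesters actin monomers, had 0, 39 and 197 UMIs in the lowest, median and highest granulocyte well and 0, 1 and 5 in erythroblasts, so 94 granulocyte wells exceeded every erythroblast well. Its levels were 9963 and 136 CPM, a 73.0-fold difference (59.3 to 90.9). Actb, the cytoplasmic actin often used as a reference gene, was 4.97-fold higher (4.70 to 5.25), at 12639 against 2544 CPM. Cfl1, which severs actin filaments, was the member within 2-fold, at a log2 ratio just under 1.00.

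Myeloid transcription factors were low in count but one-sided. All 6 compared (of 10 listed) were at least 2-fold higher in granulocytes, with a median log2 ratio of 4.56. Spi1, which encodes PU.1, had 288 against 17 UMIs, a 28.0-fold difference (17.2 to 48.7). Cebpe, required for specific granule formation, had 61 UMIs in granulocytes and none in erythroblasts, 33.6-fold higher with erythroblasts set to the floor of 3 UMIs. Without the 12 low-S100 wells only 3 of the 6 genes still had 50 UMIs, and all 3 remained on the granulocyte side (median 5.32), while Irf8 was no longer among them. Lysosomal genes were mixed: 5 of 7 compared were higher in granulocytes and Ctsb, a cysteine cathepsin, was 2.08-fold higher in erythroblasts (1.71 to 2.55), a log2 ratio of -1.06 that became -1.97 without the low-S100 wells. Ctsb was inside 2-fold with Gm42418 left out of the total (-0.93), without granulocyte row G (-0.84) or H (-0.99) and without erythroblast row D (-0.98). Of the MHC class I genes 3 of 7 were compared and 1 was past 2-fold, the peptide transporter gene Tap1 (log2 1.29 from 31 against 21 UMIs), which fell to 0.92 with haemoglobin left out. B2m, the light chain shared by these molecules, had 961 against 874 UMIs (log2 0.86).

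**Figure D3:**
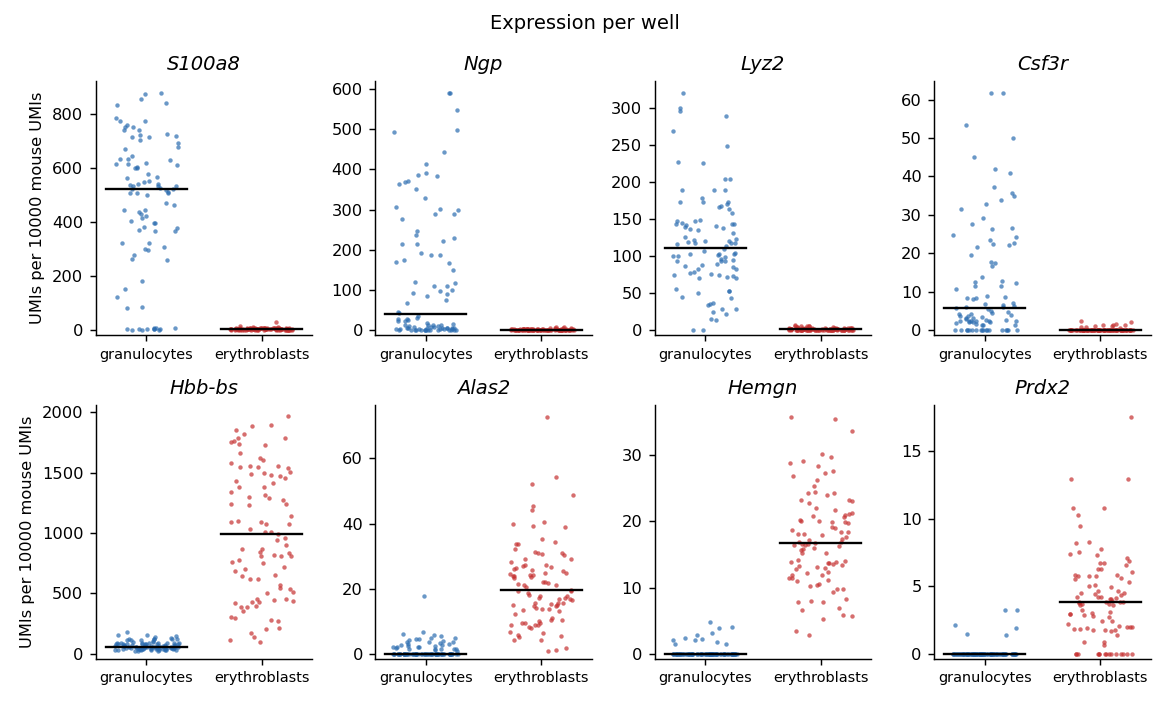
UMIs per 10000 mouse UMIs in each well (vertical) for 8 genes, granulocytes (94 wells) beside erythroblasts (95 wells) with at least 500 UMIs, with a bar at the median. S100a8, Ngp, Lyz2 and Csf3r are high in granulocytes and near 0 in erythroblasts, Hbb-bs, Alas2, Hemgn and Prdx2 the reverse, and many granulocyte wells have Ngp near 0 while others are far above it.

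Among erythroblast genes the haemoglobins had the highest levels but not the highest ratios. Hbb-bs, a beta chain, had 21, 608.5 and 1128 UMIs in the lowest, median and highest erythroblast well and 0, 23 and 71 in granulocytes. In 95 erythroblast wells it exceeded every granulocyte well. Its levels were 85233 and 5886 CPM, a 14.5-fold difference (13.9 to 15.1). The other 3 gave 13.6-fold (Hba-a1), 15.2-fold (Hba-a2) and 23.0-fold (Hbb-bt), though the alpha copies and the beta copies share sequence and reads could be split between them. Granulocyte wells held 44.4 Hba-a1 UMIs for every 1000 in erythroblast wells, against 37.0 for the haem enzyme Alas2, and the Hba-a1 level in granulocytes (5415 CPM) lay between those in LSK (4096 CPM) and T lymphocyte wells (6273 CPM). The origin of haemoglobin UMIs in granulocyte wells was not tested. Hbq1b, a theta-like globin, had 85 UMIs in erythroblasts and none in granulocytes, 17.1-fold higher with granulocytes set to the floor of 3 UMIs.

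The 12 genes with the lowest ratios included genes of red cells and genes of general function. Hemgn, which encodes the nuclear protein hemogen (ENSMUSG00000028332, chromosome 4, 46393989 to 46413506, minus strand), had 0, 10.5 and 31 UMIs in the lowest, median and highest erythroblast well and at most 1 in a granulocyte well. It exceeded every granulocyte well in 94 erythroblast wells and was 54.8-fold higher (31.2 to 106), at 1629 against 29.7 CPM. At 1500 UMIs per well it was detected in 96.8% of erythroblast and 7.53% of granulocyte wells (99.0% and 12.5% before thinning). Blvrb, the biliverdin reductase B of red cells, had 896 against 12 UMIs, a 45.2-fold difference (25.7 to 87.8). Ermap, an erythroid membrane protein, had 300 UMIs in erythroblasts and 3 in granulocytes, a ratio of 60.5 (20.5 to 295). Mgst3, a microsomal glutathione transferase, had 456 against 7 UMIs, Slc43a1, an amino acid transporter, 340 against 5, and Ptdss2, a phosphatidylserine synthase, 189 against 3. Myh10, a non-muscle myosin heavy chain, had 208 against 2 UMIs (ratio 62.9, 17.2 to 523). Ppp1r15a, a phosphatase regulator of the stress response, had 287 against 4 but overlaps Tulp2. Hba-ps4 and Tdpx-ps1 are annotated pseudogenes close in sequence to alpha globin and to Prdx2, so their 3469 and 311 erythroblast UMIs are uncertain. Processed pseudogenes were unevenly placed. Of 252 compared, 188 were at least 2-fold higher in erythroblasts and 9 in granulocytes, beside 40.2% and 26.2% of all genes. Reads of genes close in sequence could fall on them, so these counts are uncertain as well.

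The haem pathway differed along its whole length. All 9 compared enzymes and carriers (of 10 listed) were at least 2-fold higher in erythroblasts, with a median log2 ratio of -4.03. Alas2, the erythroid enzyme of the first and rate-limiting step, ran from 1 through 13 to 33 UMIs per erythroblast well and from 0 through 0 to 3 in granulocytes. It was at 1864 against 114 CPM, a 16.4-fold difference (12.2 to 22.5). Cpox, a later enzyme of the path, reached 29.2-fold (19.8 to 44.9). Slc25a38, which carries glycine into mitochondria, had the smallest (log2 -2.38). Uros had 44 UMIs in erythroblasts and none in granulocytes and stayed below the limit for comparison.

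Most iron genes were higher in erythroblasts. Of 7 compared (9 listed), 5 were at least 2-fold higher in erythroblasts, with a median log2 ratio of -3.42. Tfrc, the transferrin receptor for uptake, had 1, 11 and 44 UMIs in the lowest, median and highest erythroblast well and at most 2 in granulocytes, a 15.6-fold difference (11.6 to 21.5). Fth1, the ferritin heavy chain for storage, was 3.78-fold higher (log2 -1.92, interval -2.07 to -1.77) from much higher levels on both sides, 3966 and 1048 CPM. Slc40a1, the iron exporter, and Ireb2, a regulator of iron messengers, were past 2-fold in the other direction (log2 1.08 and 1.01), but they fell to 0.71 and 0.64 with haemoglobin left out of the total.

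Red cell membrane genes had the lowest median of the erythroid lists, -4.75, and all 11 compared (of 16 listed) were at least 2-fold higher in erythroblasts. Slc4a1, the anion exchanger band 3, had 0, 28.5 and 59 UMIs in the lowest, median and highest erythroblast well and 0, 1 and 6 in granulocytes. It was at 4285 against 198 CPM, a 21.6-fold difference (17.3 to 27.3). Gas exchange and antioxidant genes numbered 8 compared of 10, all 8 higher in erythroblasts (median -4.51). Car2, a carbonic anhydrase, was at 5173 against 265 CPM, and Aqp1, a water and gas channel, had 974 against 22 UMIs. The antioxidant enzymes divided: Prdx2 was 26.9-fold higher (12.2 to 74.0), whereas Gpx1 was 3.74-fold (3.35 to 4.18) and Sod1 had a log2 ratio of -1.62, which became -2.37 without the low-S100 granulocyte wells.

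Erythroid transcription factors were higher in erythroblasts for 8 of 9 compared (10 listed), with a median log2 ratio of -2.47. Klf1, which activates beta globin, had 472 against 12 UMIs, a 23.8-fold difference (13.5 to 46.4), and Tal1 140 against 3, a ratio of 28.2 (9.47 to 139). Gata1 was 8.78-fold higher (5.11 to 16.3), with 0, 2 and 10 UMIs in the lowest, median and highest erythroblast well. Nfe2, named for its part in globin expression, did not separate the populations, with 82 against 145 UMIs and a ratio of erythroblasts over granulocytes of 1.07 (0.811 to 1.42). Its level of 203 CPM in granulocytes and 217 in erythroblasts was close to the 176 CPM of LSK wells and far from the 7.36 and 9.98 CPM of B and T lymphocyte wells. Of the genes for clearing organelles and proteins, 5 of 10 were compared and 3 were at least 2-fold higher in erythroblasts: the erythroid tripartite motif protein gene Trim10 (log2 -4.86), the ubiquitin ligase Ube2o (log2 -4.07) and Ube2c, which also acts in mitosis. Bnip3l, a mitophagy receptor, and Map1lc3b, an autophagosome protein, lay within 2-fold.

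Cell cycle genes were on the erythroblast side. All 13 compared replication genes (of 15 listed) and 12 of 13 mitosis genes (of 14) were at least 2-fold higher in erythroblasts, with median log2 ratios of -2.99 and -3.05. Mki67, a marker of cycling cells, had 4, 30 and 119 UMIs in the lowest, median and highest erythroblast well and 0, 0 and 39 in granulocytes. It was detected at 1500 UMIs in all thinned erythroblast wells and in 33.3% of granulocyte wells. Pcna, the sliding clamp of replication, was 13.8-fold higher (9.04 to 22.3). Hmgb2 was the mitosis gene within 2-fold (log2 -0.89), and reached -1.26 with haemoglobin left out. Granulocytes spent a median of 0.0780% of their non-haemoglobin UMIs on the mitosis list and erythroblasts 1.87%.

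Genes of the basic cell machinery lay nearer the middle. Their values shifted with the wells counted, as did the median of all genes (given below). None of 67 compared cytosolic ribosomal protein genes (82 listed) was at least 2-fold higher in granulocytes and 52 were in erythroblasts. Over all genes compared these shares were 26.2% and 40.2%. The median log2 ratio of the ribosomal list was -1.34, from -2.29 for Rpl41 to -0.05 for Rps9. Without the 12 low-S100 wells and the 1 shallow well like them, 66 of 67 were higher in erythroblasts and the median was -2.00. The number of all genes compared then changed too, so no share of all genes is set beside counts without those wells. Nuclear genes of oxidative phosphorylation had 31 of 62 (80 listed) at least 2-fold higher in erythroblasts, 2 in granulocytes (Sdhd and Ndufv3) and 29 within 2-fold, with a median of -0.98, beside 40.2% of all genes higher in erythroblasts. The same list had 42 of 62 with haemoglobin left out of the total, beside 48.3% of all genes, and 36 of 60 with a median of -1.28 without those wells. The mitochondrial genome gave 11 of 12 (25 listed) higher in erythroblasts (median -1.68), or 12 of 12 (median -1.91), and its transcripts took 3.24% of erythroblast and 1.09% of granulocyte UMIs. Proteasome subunits had 11 of 25 (35 listed) higher in erythroblasts (median -0.90), a share close to the 40.2% of all genes, or 18 of 25 with haemoglobin left out (48.3% of all genes) and 16 of 24 (median -1.22) without those wells. Psmb8, which replaces a standard subunit in the immunoproteasome, went the other way with 70 against 10 UMIs (11.6-fold, 5.93 to 25.2). Among nucleolar and chaperone genes 3 of 11 were compared and 2 were higher in erythroblasts, Ncl (log2 -1.63) and Ran (log2 -2.98).

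Most glycolytic genes compared were higher in granulocytes. Of 14 listed, 6 were compared, 5 were at least 2-fold higher in granulocytes and the median log2 ratio was 4.23. Pkm, the pyruvate kinase of the last step, had 0, 4 and 17 UMIs in the lowest, median and highest granulocyte well and at most 3 in erythroblasts, a 24.5-fold difference (17.0 to 36.4). The first step differed by isoform: Hk3 had 56 UMIs in granulocytes and none in erythroblasts (30.8-fold higher against the floor of 3 UMIs), whereas Hk1 had 7 against 45 (log2 -1.96). Immediate early genes, which are often induced by handling, were sparse, with 4 of 10 compared. Zfp36 had 80 against 3 UMIs and Btg2 92 against 243, and the median of 1.51 turned to -0.51 without the low-S100 wells, when 3 genes were left.

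Within the granulocytes, wells differed widely in their share of granule genes. In the 94 wells with at least 500 UMIs, the specific granule list took 0.188% of non-haemoglobin UMIs in the lowest well, 2.19% in the median and 16.0% in the highest, and 33 wells were at 5% or more. The gelatinase list ran from 0.0449% through 1.67% to 4.86%. Across these wells, which share an animal, a plate and a total, the specific granule share had a Spearman correlation of 0.69 with the S100a8 and S100a9 share and of -0.05 with the gelatinase share (Pearson -0.37). These values include the 12 low-S100 wells, in which the gelatinase share was between 0.0486% and 0.109%. Over the other 82 wells the correlations were 0.58 with the S100a8 and S100a9 share and -0.48 with the gelatinase share (Pearson -0.61). With the share of the chemoattractant and cytokine receptor list, the Spearman correlation of the specific granule share was -0.30 over 94 wells and -0.79 over 82. In the 13 wells with 10% or more on the specific granule list, the gelatinase share had a median of 0.262% and reached 0.921% at most, below the median of all 94 wells. The gelatinase share was lower in wells with more UMIs, with a Spearman correlation of -0.54 over 94 wells and -0.41 over 82, and the specific granule share was higher in them over the 82 wells (0.69).

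**Figure D4:**
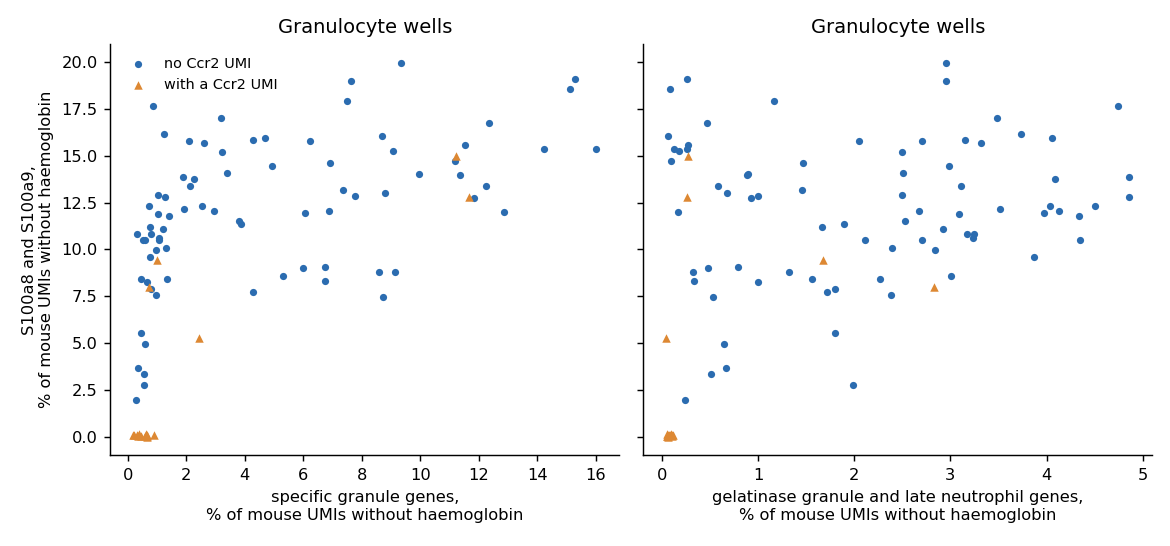
Percent of non-haemoglobin UMIs on S100a8 and S100a9 (vertical) against the percent on the specific granule list (left panel) and on the gelatinase list (right panel), 1 point per granulocyte well with at least 500 UMIs (94 wells), with triangles for wells that have a Ccr2 UMI. A separate group of wells sits near 0 on the S100 axis and consists of triangles, and among the others the specific granule share spreads up to 16.0%.

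Within the erythroblasts, haemoglobin share ordered the wells. It ran from 3.53% through 27.2% to 52.3% in the 95 wells with at least 500 UMIs, and 87 wells were at 10% or more and 20 at 40% or more. Shares of the other lists were taken of non-haemoglobin UMIs, so that haemoglobin did not dilute them. The red cell membrane share was higher where the haemoglobin share was higher (Spearman 0.93), as were the haem list (0.81) and the gas exchange and antioxidant list (0.74). The ribosomal protein list (-0.83) and the replication list (-0.71) were lower where haemoglobin was higher. The mitosis list went with haemoglobin (0.75), but unevenly, since Mki67 gave 38.2% of its UMIs (Spearman 0.65) and Ube2c reached 0.74, while Top2a stood at 0.27 and Cdc20 at -0.07. Mitochondrial transcripts showed no such order (-0.03). These are descriptions over wells of 1 animal, and wells with more haemoglobin also had fewer mouse UMIs (Spearman -0.69), whose part in the pattern was not tested. The summed erythroblast levels given above are thus an average over wells that differed widely in these shares.

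**Figure D5:**
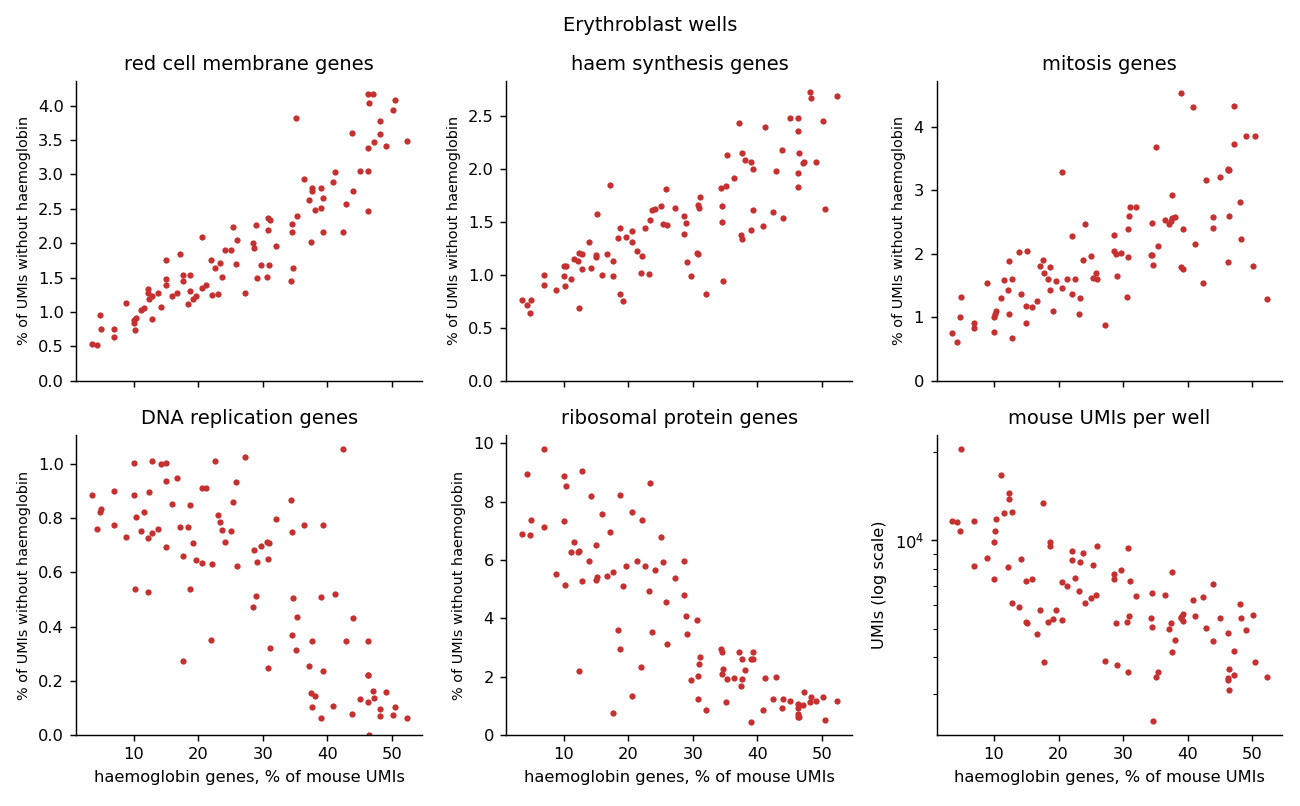
Percent of non-haemoglobin UMIs on red cell membrane, haem, mitosis, replication and ribosomal protein genes, and mouse UMIs per well (log scale), against haemoglobin as a percent of mouse UMIs, 1 point per erythroblast well with at least 500 UMIs (95 wells). Membrane, haem and mitosis shares are higher and replication and ribosomal shares and UMIs per well lower where haemoglobin is higher.

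Markers of other cell types were low in both populations except for monocyte genes. B lymphocyte markers summed to 86 UMIs in granulocytes and 81 in erythroblasts with Pax5 at 0 in both, T lymphocyte markers to 25 and 26, and progenitor/stem cell markers to 64 and 90. Megakaryocyte and platelet markers had 8 and 32 UMIs, and the 3 measured markers of eosinophils, basophils and mast cells 5 and 0. Monocyte and macrophage markers had 386 and 11 UMIs, of which Ccr2 made 276 in granulocytes. Of those, 231 were in the 12 wells described above and 41 in the well rich in primary granule genes. The long noncoding RNA gene Gm42418, which overlaps ribosomal RNA-like annotations (AY036118 and CT010467.1), took 16.4% of granulocyte and 8.59% of erythroblast UMIs, beside 13.8% to 22.7% in the other populations, so its log2 ratio of 0.93 is not read as expression of a gene.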

How the data were processed

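Single cells were sorted into a 384-well plate and profiled by CEL-seq2. The deposited values are raw UMI counts per gene and well, which the authors made with *scPipe*: barcodes and UMIs were trimmed, reads aligned and assigned to exons, wells demultiplexed by barcode and UMIs collapsed. For this plate, the sources used here give no aligner, genome build, annotation or strand setting. They give contradictory positions for barcode and UMI in read 1. The table held 19829 mouse genes and 74 ERCC spike-ins, and 374 columns matched the labels. The other 9 columns were not used. Gene symbols, types and coordinates were taken from GENCODE M21 on GRCm38, possibly another build than the authors used, and matched 19755 identifiers.

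Counts were summed per population, divided by mouse UMIs (ERCC left out) and compared as CPM ratios for genes with at least 50 UMIs in both together. Sums under 3 UMIs were set to 3 for ranking, counts of genes and medians, while ratios printed for sums of 1 to 3 use the UMIs as counted. Intervals were 95% exact binomial intervals, conditional on the sum of the counts for ratios. They cover counting error only. Named genes were the 12 highest and 12 lowest ratios among genes detected in 25% or more of the wells on their high side, the 5 genes with the most UMIs in each population, and the members of 37 gene lists. Wells and lists were chosen with earlier results of these data known. Genes listed but not in the table (S100a4, Anxa2, Anxa3, Cxcr1, Cebpa, Ahsp, Sptb, Epb41, Add2, Hagh, Mcm7, Hspe1, Aldoa, Prg2, Epx and Fcer1a) were not analysed here. The marker lists gave 8 of 8 granulocyte genes at least 2-fold higher in granulocytes (median log2 6.74) and 9 of 9 erythroblast genes higher in erythroblasts (median -4.29). Of the sort antigen genes, 3 of 4 compared were at least 2-fold higher in granulocytes. Some genes that the rule names are not reported here.

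Alternatives were other totals (haemoglobin genes, Gm42418 or mouse UMIs replaced by ERCC UMIs), TMM factors (edgeR 4.0.16), scran 1.30.0 size factors, equal weight per well, other minimum counts and floors, and leaving out wells or plate rows. The ratio code was tested on simulated data. The analysis used Python 3.11.15, numpy 2.4.6, pandas 2.3.3, scipy 1.17.1, matplotlib 3.10.9 and R 4.3.3. Promoter windows were found for 71.9% of compared genes, so no motif share over a gene list is given.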

Additional observations from a re-analysis of the deposited data

How the results depend on the processing

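No paired analysis was possible because each population was 1 sample. A share or named-gene ratio counts as moved where it left its 95% counting interval, and a median log2 ratio where it passed a small fixed margin. Counts of genes moved where they changed by more than 1.5 times. Over all alternatives, 317 list values moved, 323 did not and 1 reversed, while for named genes 58 moved and 531 did not. With haemoglobin genes left out of the total, the median log2 ratio was -0.91 and the S100a8 and S100a9 share 9.88% in granulocytes and 0.115% in erythroblasts. With Gm42418 left out, the median was -0.42, the haemoglobin share in erythroblasts 25.7%, the haemoglobin share in granulocytes 1.84%, the S100a8 and S100a9 share in granulocytes 11.6% and the S100a8 and S100a9 share in erythroblasts 0.0962%. With ERCC UMIs as the total the median was -1.39, with 592 genes at least 2-fold higher in granulocytes and 1752 genes at least 2-fold higher in erythroblasts. With equal weight per well, haemoglobin took 27.5% of erythroblast and 1.80% of granulocyte UMIs and the S100 genes 10.2% of granulocyte UMIs. Without wells nearest another population the last share was 10.0%. A minimum of 20 UMIs gave a median of -0.29 and counts of 1609 and 1979, and 100 UMIs gave -0.81 with 376 and 737. With a minimum of 1 UMI the median was 0.72, the value of any gene at the floor in both populations, with counts of 3221 and 2467. TMM factors gave 802 and 1230 genes and scran 810 and 1290, over the same 3057 genes. Where wells or plate rows were left out, the minimum of 50 UMIs was applied anew. In those settings and at other minimum counts the number of genes compared was not held at 3057. Their counts of genes thus cannot be read directly against 802 and 1229. Leaving out each plate row in turn gave medians of -0.78 to -0.47, 595 to 775 and 1028 to 1208 genes, haemoglobin shares of 22.5% to 25.0% in erythroblasts and 1.47% to 1.63% in granulocytes, and S100 shares of 9.32% to 10.3% and 0.0831% to 0.0923%.

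A further 3 alternatives were chosen after seeing the data. Without granulocyte wells under 1% S100a8 and S100a9 the median was -0.86, with 653 and 1333 genes, the number compared again not held at 3057. Haemoglobin then took 1.63% and the S100 genes 11.7% of granulocyte UMIs, and the immediate early median turned from 1.51 to -0.51. Without the well rich in primary granule genes haemoglobin took 1.59% and the S100 genes 10.0% of granulocyte UMIs, and the S100 share was also 10.0% without wells under 1000 UMIs or nearest another population. Over 19 alternatives, no named gene changed sign and 30 of 31 stayed on the same side of 2-fold, the exception being Gm42418 (0.93, up to 1.09). Of 34 list medians 29 stayed on their side. The exceptions were oxidative phosphorylation (-0.98, but -1.35 with haemoglobin left out and -1.82 with ERCC totals), the proteasome (-0.90, but -1.26 and -1.74), both of which also crossed it in some sets of wells, and, with ERCC totals, the immediate early genes (0.67), the B lymphocyte markers (0.67) and the progenitor/stem cell markers (-1.31).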

Other observations

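Genes at 0 in one population gave further one-sided pairs within families. Ly6c1, a near copy of Ly6c2, had 50 UMIs in granulocytes and none in erythroblasts (27.5-fold higher against the floor of 3 UMIs). Clec4e and Ctsc, which encode a lectin receptor and the cathepsin that activates granule proteases, had 36 and 43 UMIs in granulocytes and none in erythroblasts, too few for the comparison. Il1r2, a decoy receptor for interleukin-1, likewise had 43 and none. Hk2 and Pgk1 of glycolysis had 27 and 21 granulocyte UMIs and none in erythroblasts.

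The level of each population's genes in the other population was uneven. Erythroblast wells held between 10.0 (Camp) and 52.4 (Lcn2) UMIs for every 1000 in granulocyte wells, with Retnlg at 44.5 and Chil3 at 41.1. Granulocyte wells held 44.4 for every 1000 in erythroblast wells for Hba-a1, 31.0 for Car2, 26.3 for Hbb-bt and 20.7 for Cpox. These genes were chosen as marker genes, and what sets these levels was not tested.

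Cd44 RNA and CD44 protein stood in the same order. The Cd44 gene had 23 UMIs in granulocytes and 1 in erythroblasts, and the median fluorescence of the CD44 antibody was 19218 and 2526.5, although CD44 was part of the erythroblast gate. Side scatter, which grows with granularity, had a median of 53536 in granulocytes and 28352 in erythroblasts, and 34 granulocytes exceeded every erythroblast. Mouse UMIs per ERCC UMI were 9.67 and 17.3.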
